A study of Mus musculus with 6 samples.

Results

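The accessible regions of the 4 mouse Hox gene clusters in muscle stem cells (MuSCs) are described here, by cluster and by paralog number. Members were all peaks of the ATAC-seq table that the authors assigned to a protein-coding gene whose symbol is Hoxa, Hoxb, Hoxc or Hoxd followed by a number. The rule gave 79 of the 75412 peaks of the series, among 23357 peaks assigned to protein-coding genes. They covered 37 of the 39 annotated Hox genes, and no peak was assigned to Hoxc5 or Hoxd3.

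The series profiled open chromatin by ATAC-seq, in which the Tn5 transposase cuts accessible DNA and tags it for sequencing, in freshly isolated MuSCs, the Pax7-expressing stem cells of skeletal muscle. There were 3 libraries of control and 3 of Taf4a sKO MuSCs, each from 50000 cells sorted from limb and trunk muscle of C57BL/6 mice of both sexes, 8 to 20 weeks old per the study's methods. The control libraries are labelled WT and the Taf4a sKO libraries ko-Taf4a. By the study's general description of its mice, not by these labels, both groups carried loxP sites around exons 11 and 12 of Taf4a (Taf4a flox/flox). Taf4a is the gene for a subunit of the general transcription factor TFIID. Taf4a sKO mice also carried Pax7CreERT, a tamoxifen-inducible Cre recombinase expressed from the Pax7 locus, and received tamoxifen at 0.05 mg per g body weight in each injection, whereas the control mice are described as littermates with or without the Pax7CreERT allele and the labels do not say which genotype each control library had or whether it received tamoxifen. The comparison asked which regions open or close when Taf4a is removed from MuSCs.

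Values are the authors' read counts per peak after scaling for depth and rounding, called normalized counts below. Summed over all peaks they came to 37722015, 35226223 and 42803315 in the control libraries and to 44311913, 41661725 and 41948821 in the Taf4a sKO libraries. The peak over exon 12 of the targeted gene, listed under the symbol Taf4, at chr2:179922849-179923263, had normalized counts of 65, 78 and 137 in control and 44, 22 and 25 in Taf4a sKO MuSCs, so each library matched its label in direction. All 14 MuSC marker genes examined, among them Pax7, Myf5 and Myod1, had a peak within 1000 bp of the start site, with a median of 1094 normalized counts per kb in control. No start-site peak was present for the defining markers Pecam1 (endothelium), Ptprc (blood cells), Pdgfra (fibro-adipogenic progenitors) or Sox10 (glia). A start-site peak was present for 3 of 8 endothelial, 1 of 8 haematopoietic, 5 of 8 fibro-adipogenic, 1 of 5 glial and 4 of 7 myofibre markers. The haematopoietic gene was Cd68, whose start-site peak had 798, 825 and 1218 normalized counts per kb in control and 512, 528 and 512 in Taf4a sKO MuSCs, while the sum over all 4 haematopoietic peaks overlapped between the groups (1080, 1128 and 1209 compared to 1109, 1042 and 1230). The endothelial start-site peaks, the most accessible at Tek, had together 493, 447 and 614 per kb in control and 661, 660 and 629 in Taf4a sKO MuSCs, all above control. The fibro-adipogenic ones, led by Dpt, had 436, 420 and 509 compared to 451, 448 and 427. The myofibre ones, led by Mylpf, had 1486, 1303 and 1682 compared to 1756, 1565 and 1540, and the groups overlapped in both of these lists. Over all peaks of the lists, limma called 3 of 8 endothelial peaks higher and 1 lower, and 8 of 20 fibro-adipogenic peaks higher and 3 lower. It called 1 of 7 glial peaks higher and 1 lower, 1 of 4 haematopoietic peaks lower and 4 of 13 myofibre peaks lower. Of 58 peaks at the MuSC markers, 19 were higher and 5 lower. The shares were 28.0% higher and 13.9% lower over all peaks, and 17.8% and 9.68% over peaks of protein-coding genes. Per the study's methods, cells with SCA1, CD45 or CD31 were depleted, and cells with integrin-a7 or the Pax7-zsGreen reporter were then sorted. The study reports that the sorted cells were not fully pure on reanalysis. The part of other cell types in the results below was not tested.

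Hox genes encode homeodomain transcription factors that give cells their position along the body axis and the limb. They lie in 4 clusters, genes of the same paralog number in different clusters descend from a common ancestor, and the order of the genes along the chromosome follows the order of their domains from anterior (low numbers) to posterior (high numbers). Silent clusters are typically held by Polycomb proteins and active ones by Trithorax proteins, and adult cells, MuSCs included, are known to retain a Hox pattern of their site of origin.

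The following stretches show the DNA of the Hox peaks on which the comparison turns and which hold enough sequence outside annotated untranslated regions. They were read from the GRCm38.p6 reference, the assembly behind mm10, on the plus strand, 5′ to 3′. Capitals mark matches on either strand to the short motifs TGATTNAT (Pbx-Hox), CCAAT (NF-Y), GGGCGG (SP1), TGANTCA (AP-1) and CAGCTG (E-box). A match is a description of the letters and not a binding site. The stretches lie at chr6:52185112-52185411, chr6:52183856-52184111, chr6:52208723-52208955, chr2:74667279-74667578, chr11:96269723-96270022, chr6:52168674-52168973 and chr15:102931700-102931999, in this order, and the first 4 belong to peaks that rose and the last 3 to peaks that fell.
Hoxa4, 710-bp peak: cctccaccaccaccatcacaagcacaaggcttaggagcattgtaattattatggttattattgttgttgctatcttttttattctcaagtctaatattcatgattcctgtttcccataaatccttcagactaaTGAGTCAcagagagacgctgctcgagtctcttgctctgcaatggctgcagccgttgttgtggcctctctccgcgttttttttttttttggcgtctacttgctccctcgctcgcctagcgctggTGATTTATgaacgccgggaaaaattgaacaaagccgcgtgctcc
Hoxa4, 299-bp peak: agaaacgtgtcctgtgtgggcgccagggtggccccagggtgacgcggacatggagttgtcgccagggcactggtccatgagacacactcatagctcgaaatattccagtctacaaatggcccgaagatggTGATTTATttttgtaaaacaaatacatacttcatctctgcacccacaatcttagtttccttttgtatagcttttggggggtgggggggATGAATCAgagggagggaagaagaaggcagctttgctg
Hoxa6, start-site peak: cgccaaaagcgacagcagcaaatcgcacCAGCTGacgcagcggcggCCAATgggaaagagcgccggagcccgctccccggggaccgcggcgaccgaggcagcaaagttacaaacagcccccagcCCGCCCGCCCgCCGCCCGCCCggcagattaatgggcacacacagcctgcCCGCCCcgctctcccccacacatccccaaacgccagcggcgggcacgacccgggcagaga
Hoxd13, upstream peak: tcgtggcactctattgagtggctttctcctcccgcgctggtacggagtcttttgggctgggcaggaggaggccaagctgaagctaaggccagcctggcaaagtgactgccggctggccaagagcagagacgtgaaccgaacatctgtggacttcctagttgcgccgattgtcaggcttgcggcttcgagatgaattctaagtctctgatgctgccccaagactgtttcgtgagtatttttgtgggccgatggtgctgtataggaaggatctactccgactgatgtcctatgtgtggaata
Hoxb9, upstream peak: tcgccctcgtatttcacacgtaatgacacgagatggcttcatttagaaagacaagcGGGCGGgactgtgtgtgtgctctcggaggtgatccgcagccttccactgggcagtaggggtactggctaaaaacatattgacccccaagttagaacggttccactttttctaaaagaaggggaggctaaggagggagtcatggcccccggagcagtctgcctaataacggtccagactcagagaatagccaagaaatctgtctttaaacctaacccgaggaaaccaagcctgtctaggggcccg
Hoxa2, upstream peak: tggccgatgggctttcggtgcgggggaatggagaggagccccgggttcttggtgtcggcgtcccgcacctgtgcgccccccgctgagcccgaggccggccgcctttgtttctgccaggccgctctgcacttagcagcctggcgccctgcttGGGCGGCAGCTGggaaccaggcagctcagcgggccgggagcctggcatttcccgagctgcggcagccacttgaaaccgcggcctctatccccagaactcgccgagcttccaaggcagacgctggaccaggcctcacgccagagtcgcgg
Hoxc12, upstream peak: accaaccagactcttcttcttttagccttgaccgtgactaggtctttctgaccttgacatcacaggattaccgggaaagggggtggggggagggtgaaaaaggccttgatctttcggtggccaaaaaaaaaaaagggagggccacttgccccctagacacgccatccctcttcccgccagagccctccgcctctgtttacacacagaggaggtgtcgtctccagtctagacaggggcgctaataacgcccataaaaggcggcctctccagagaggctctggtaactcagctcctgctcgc
The neighbouring Hoxa4 peaks both held the Pbx-Hox and the AP-1 motif, and in the 299-bp peak the second Pbx-Hox match overlapped the AP-1 match. The Hoxa6 stretch held 4 overlapping or adjacent SP1 matches and 1 apart from them, 1 NF-Y match and 1 E-box. No match to these motifs was found in the Hoxd13 and Hoxc12 stretches.

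Hox peaks were distributed over the clusters as 24 in HoxA (chromosome 6), 20 in HoxB (chromosome 11), 22 in HoxC (chromosome 15) and 13 in HoxD (chromosome 2). In mm10 HoxB, HoxC and HoxD span chr11:96194316-96368256, chr15:102921103-103036852 and chr2:74668310-74765142. A gene had 1 to 5 peaks, and 23 genes had more than 1. The peaks were 190 to 2886 bp long, with a median of 674 bp compared to 590.0 bp over all peaks. By the GENCODE vM21 annotation the centre of 39 peaks lay in an exon, that of 24 in an intron and that of 16 outside transcripts. Since the genes overlap, the assigned gene is not always the nearest: 14 of the 79 peaks had their centre closer to a start of another protein-coding gene, including 3 of the peaks that changed. Hoxc5 itself was not without open chromatin, because the 1906-bp peak assigned to Hoxc4 overlapped Hoxc5 exons.

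HoxA was the most accessible cluster in control MuSCs and HoxB the least. Levels are given as normalized counts per kb of peak, since peaks differ in length. HoxA had 771 ± 58.3 (SD, n = 3), with 771, 713 and 829.9 in the 3 control libraries. HoxC followed with 572, 534 and 637 per kb, and HoxD with 408, 407 and 431 per kb. HoxB had 225, 221 and 251 per kb. The control libraries of one cluster did not overlap those of another, so the order HoxA, HoxC, HoxD, HoxB held in each library. HoxA peaks carried 46.1% of all Hox signal in control, HoxC 32.3%, HoxD 12.8% and HoxB 8.83%.

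Accessibility in control varied 13.5-fold among Hox peaks, from 97.4 per kb at the Hoxb13 peak to 1311 per kb at the Hoxa7 start site. The Hoxa7 start-site peak (chr6:52221316-52222407) had 1423, 1198 and 1675 normalized counts in the control libraries. The peak of Hoxc6 at chr15:102998709-103000192, the highest of HoxC, had 1682, 1554 and 1909, or 1156 per kb. The highest of HoxD, a 447-bp Hoxd4 peak 66 bp from a start of the antisense gene Hoxd3os1, had 453, 458 and 468, or 1028 per kb. The highest HoxB peak, at the start site of Hoxb9, reached 354 per kb, and thus lay below the median Hox peak of 371 per kb. At the low end, the Hoxb13 peak had 13, 31 and 20 counts, and the lowest HoxC peak, assigned to Hoxc11, had 31, 29 and 37. In Taf4a sKO MuSCs the Hoxb13 peak had 15, 21 and 15 (log2 change -0.25 ± 0.38) and the Hoxc11 peak 32, 40 and 27 (log2 change 0.02 ± 0.28), and neither was called. Both lay far from the start site of the assigned gene, at distances of 9438 and 8059 bp.

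By paralog number, the highest control level was that of number 7, represented by Hoxa7 and Hoxb7, with 988 ± 125 per kb (SD, n = 3). These levels pool the peaks of all clusters present, so they also follow the cluster that supplies most of the peak length. In number 7, Hoxa7 had 1232 per kb and Hoxb7 299. Numbers 6 (743 ± 65.1) and 10 (709.9 ± 71.6) came next, and their control ranges overlapped. The lowest were number 2 (321 ± 15.8), number 13 (355 ± 13.1) and number 11 (405 ± 30.6). In number 2, Hoxa2 had 807 per kb and Hoxb2 212. By their assigned peaks, genes of the same paralog number differed widely between clusters. Among number 4 genes, Hoxd4 had 746 ± 22.6, Hoxa4 559 ± 17.9, Hoxc4 499 ± 39.4 and Hoxb4 253 ± 27.8, and the control libraries of Hoxa4 and Hoxc4 overlapped. Among number 9 genes, Hoxa9 had 819 ± 79.2, Hoxd9 625 ± 52.7, Hoxc9 540.1 ± 56.4 and Hoxb9 246 ± 18.1, with overlap between Hoxd9 and Hoxc9. Among number 13 genes, of which Hoxa13 and Hoxd13 pattern the distal limb, Hoxa13 had 473 ± 25.0, Hoxc13 321 ± 3.78, Hoxd13 205 ± 10.8 and Hoxb13 97.4 ± 41.4.

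Within HoxD, accessibility was high in the middle of the cluster and low at both ends. Hoxd4, Hoxd8 and Hoxd9 had 746, 863 and 625 per kb, while Hoxd10, Hoxd11, Hoxd12 and Hoxd13 had 271, 230, 371 and 205 per kb and Hoxd1 had 174 per kb. The Hoxd4 level leaves out a peak at chr2:74726584-74727521 that the table assigned to Gm28230. That peak lay 22 bp from another start of Hoxd4 and had 128 per kb in control. In HoxA the genes from Hoxa2 to Hoxa10 ranged from 559 to 1232 per kb, and Hoxa11 and Hoxa13 lay below them with 505 and 473 per kb. These are levels of the assigned peaks. Those of Hoxa2 lay 3993 and 7868 bp from its start, and the latter overlapped exons of Hoxa3. The Hoxa4 level pools peaks 107 and 387 bp from starts of Hoxa3 transcripts. In HoxB the genes from Hoxb1 to Hoxb9 ranged from 139 to 299 per kb, and Hoxb13 lay below them with 97.4 per kb. Compared to the 12049 start-site peaks of all protein-coding genes, in the median at 1066 per kb, the 30 Hox peaks within 1000 bp of their start site were low, with a median of 510.1 per kb. The Hoxa7 start-site peak exceeded 61.0% of coding start-site peaks and that of Hoxa9 54.5%, whereas the Hoxb1 peak exceeded 3.13%.

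**Figure D1:**
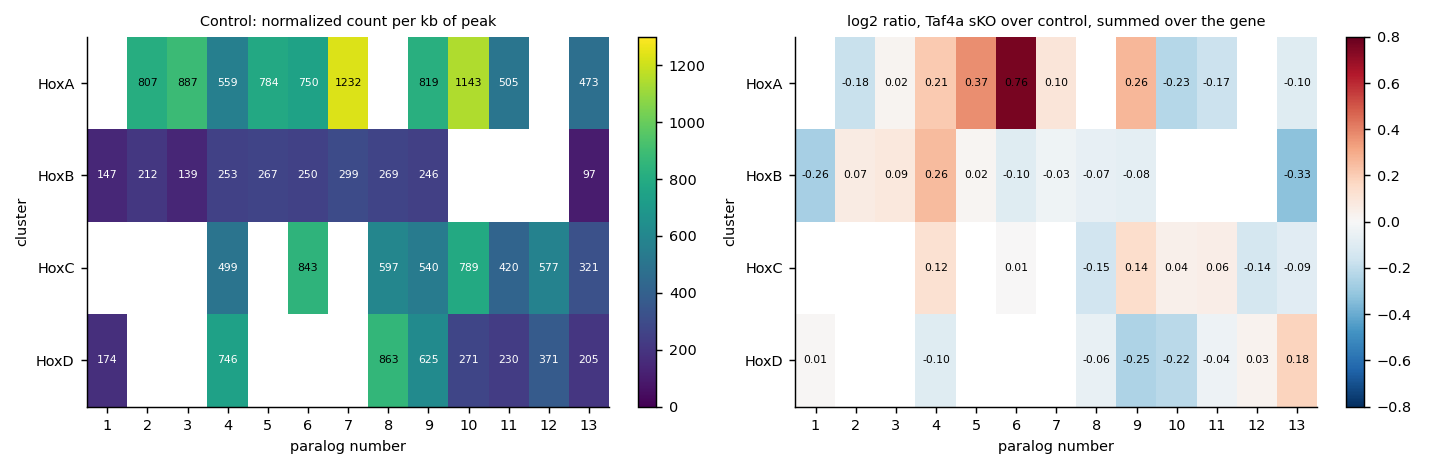
Control level (left, normalized counts per kb of peak, mean of 3 libraries) and log2 ratio of Taf4a sKO over control summed over each gene's peaks (right), by cluster (rows) and paralog number (columns); blank cells have no gene, no peak or no value reported here. HoxB is dark across the row in control, and Hoxa6 has the highest ratio.

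Hox peaks were richer in CpG than the average peak. Their median ratio of observed to expected CpG was 0.649 compared to 0.268 over all peaks and 0.550 over the peaks of protein-coding genes, and 65.8% exceeded 0.6, compared to 16.4% of all peaks. By cluster, 92.3% of HoxD, 85.0% of HoxB, 62.5% of HoxA and 36.4% of HoxC peaks exceeded 0.6. In the central 300 bp, the SP1 motif GGGCGG was found in 40.5% of Hox peaks, compared to 15098 of the 75384 peaks tested and 42.9% of coding peaks. The AP-1 motif TGANTCA was found in 8.86%, compared to 22.0% of all and 12.7% of coding peaks. The Pbx-Hox motif TGATTNAT was found in 7.59% (6 peaks), compared to 4.48% of all and 2.35% of coding peaks. CCAAT was found in 31.6% of Hox peaks and 32.2% of all peaks, and in HoxC in 11 of 22 peaks. CAGCTG was found in 16.5% compared to 29.1%, TATAAA in 3.80% compared to 9.79%, and the retinoic acid direct repeat in none compared to 0.0265%. Of the RefSeq promoter sequences of 300 bp (GRCm38), 24 sequences of 22 Hox genes could be matched. Of these 62.5% held CCAAT and 8.33% held TGATTNAT, compared to 37.4% and 3.22% of all 32851 promoters. GGGCGG was found in 41.7% compared to 35.7%, TATAAA in 16.7% compared to 13.6%, and CAGCTG in 16.7% compared to 16.3%. TGANTCA was found in 4.17% compared to 7.81%, and the retinoic acid direct repeat in none compared to 0.00913%. In the central 300 bp of start-site peaks, CCAAT was found in 26.7% of Hox peaks and 27.5% of coding peaks. Both strands were searched, and the Pbx-Hox and AP-1 patterns can overlap.

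In Taf4a sKO MuSCs most Hox peaks were not called as different from control, and with the authors' scaling those that were called mostly rose. Of the 79 Hox peaks, 15 were higher, 3 were lower and 61 were not called by limma at an adjusted p under 0.05. Across all peaks tested 28.0% were higher and 13.9% lower, and across the peaks of protein-coding genes 17.8% were higher and 9.68% lower. With this scaling, the share of Hox peaks that rose (19.0%) thus lay near that of coding peaks and the share that fell (3.80%) below both. Beyond a 2-fold change in group means, 1 Hox peak was gained and none was lost, compared to 7.02% gained and 5.36% lost over all peaks and to 701 gained and 628 lost among the 23353 coding peaks tested. In 17 Hox peaks all 3 Taf4a sKO values lay above all control values, and in 10 they lay below, compared to 32.3% and 18.0% of all peaks and to 5681 and 3501 of the coding peaks. The median log2 change was -0.01 over Hox peaks, 0.11 over all peaks and 0.06 over coding peaks, and the median size of the change regardless of sign was 0.19 over Hox peaks, 0.35 over all peaks and 0.18 over coding peaks. Since the libraries are bulk samples, a larger share of cells with an open site and a more open site per cell cannot be told apart.

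The balance of rises and falls depended on the scaling between libraries. The authors' scaling left the median of all peaks at 0.11 on the log2 scale, and trimmed-mean (TMM) factors moved it to -0.01. With TMM factors, 11 Hox peaks were higher and 16 lower, compared to 25.4% and 22.3% of all peaks. Of the 23353 coding peaks tested, 3874 were higher and 5393 lower with these factors. The median Hox change was then -0.12. Of the 18 calls, 14 were kept with TMM factors and 13 were added, all 13 of them lower. In 10 peaks the call and direction held in all 16 fits, 8 that rose and 2 that fell. Hoxa4 (2 peaks), Hoxa5, Hoxa6, Hoxa9, Hoxc13 and Hoxd13 were among the rises, and Hoxa2 and Hoxb9 were the falls. The share of all peaks called in all 16 fits was not computed, so whether 10 of 79 is many or few cannot be told. The other 8 calls, at Hoxa7, the 190-bp Hoxa9 peak, the Hoxb9 start site, Hoxc4, 2 peaks of Hoxc6, Hoxc10 and Hoxc12, were each lost when at least 1 of the libraries was left out. Without Taf4a sKO replicate 2 the number of higher peaks was 9.

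**Figure D2:**
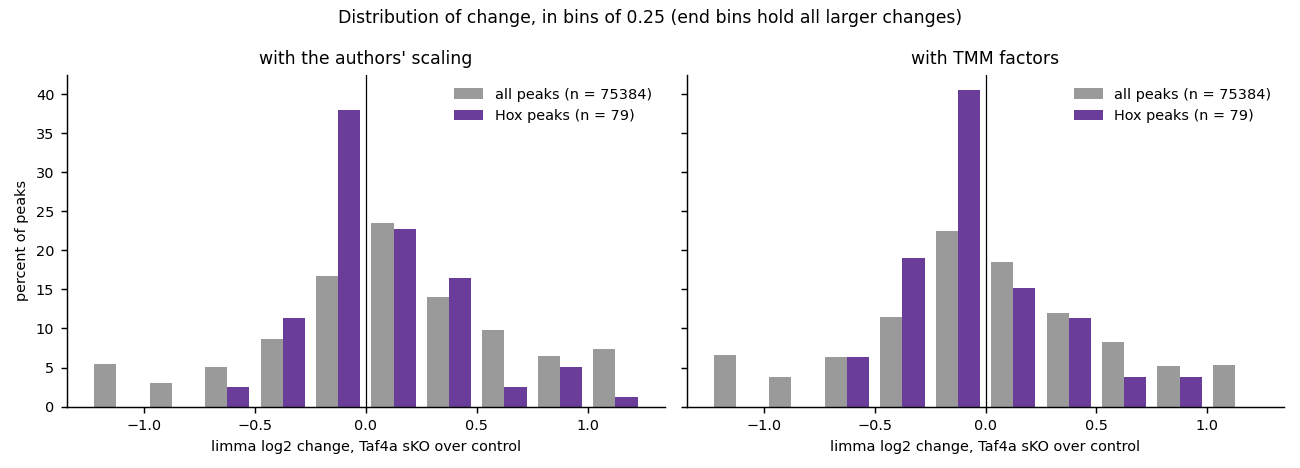
Percent of peaks (y axis) by limma log2 change in bins of 0.25 (x axis), for the 79 Hox peaks and all 75384 peaks tested, with the authors' scaling (left) and with TMM factors (right). The end bins hold all changes beyond 1 and -1; Hox peaks gather closer to 0 than all peaks, though not closer than coding peaks by their median size of change (0.19 and 0.18), and lie further to the left with TMM factors.

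Both start-site peaks and peaks further away held calls. Of the 30 Hox peaks within 1000 bp of the start site, 4 were called, all higher (13.3%), compared to 15.7% of coding start-site peaks. With TMM factors 3 were higher and 9 lower, compared to 1198 higher and 2714 lower of the 12049 coding start-site peaks. Of the 49 beyond, 11 were higher and 3 lower (28.6%), compared to 40.0% of such coding peaks. With TMM factors 8 were higher and 7 lower, compared to 2676 higher and 2679 lower of the 11304 such coding peaks. Distances in this split run to a single start of each assigned gene. The gained Hoxa9 peak thus counted as beyond, at 4050 bp, although it lay 332 bp from a start of a Hoxa9 transcript. Both called Hoxa4 peaks also counted as beyond, although they lay 107 and 387 bp from starts of Hoxa3 transcripts. By cluster, 8 HoxA peaks were higher and 1 lower, 5 HoxC peaks higher and 1 lower, 1 HoxB peak higher and 1 lower, and 1 HoxD peak higher. With TMM factors 7 HoxA peaks were higher and 5 lower, 3 HoxC peaks higher and 5 lower, 2 HoxB peaks lower, and 1 HoxD peak higher and 4 lower. With the authors' scaling the share called was 37.5% in HoxA, 27.3% in HoxC, 2 of 20 peaks in HoxB and 7.69% in HoxD, compared to 41.9% of all peaks and 27.5% of coding peaks. With this scaling none of the 6 peaks of Hoxa10, Hoxa11 and Hoxa13 was called. Their median log2 change was -0.15, and with TMM factors 4 of the 6 were lower. At least 1 peak was called in 14 genes, and in 23 genes none, again with the authors' scaling. The matching share of all protein-coding genes was not computed, and such a count depends on the number of peaks per gene.

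**Figure D3:**
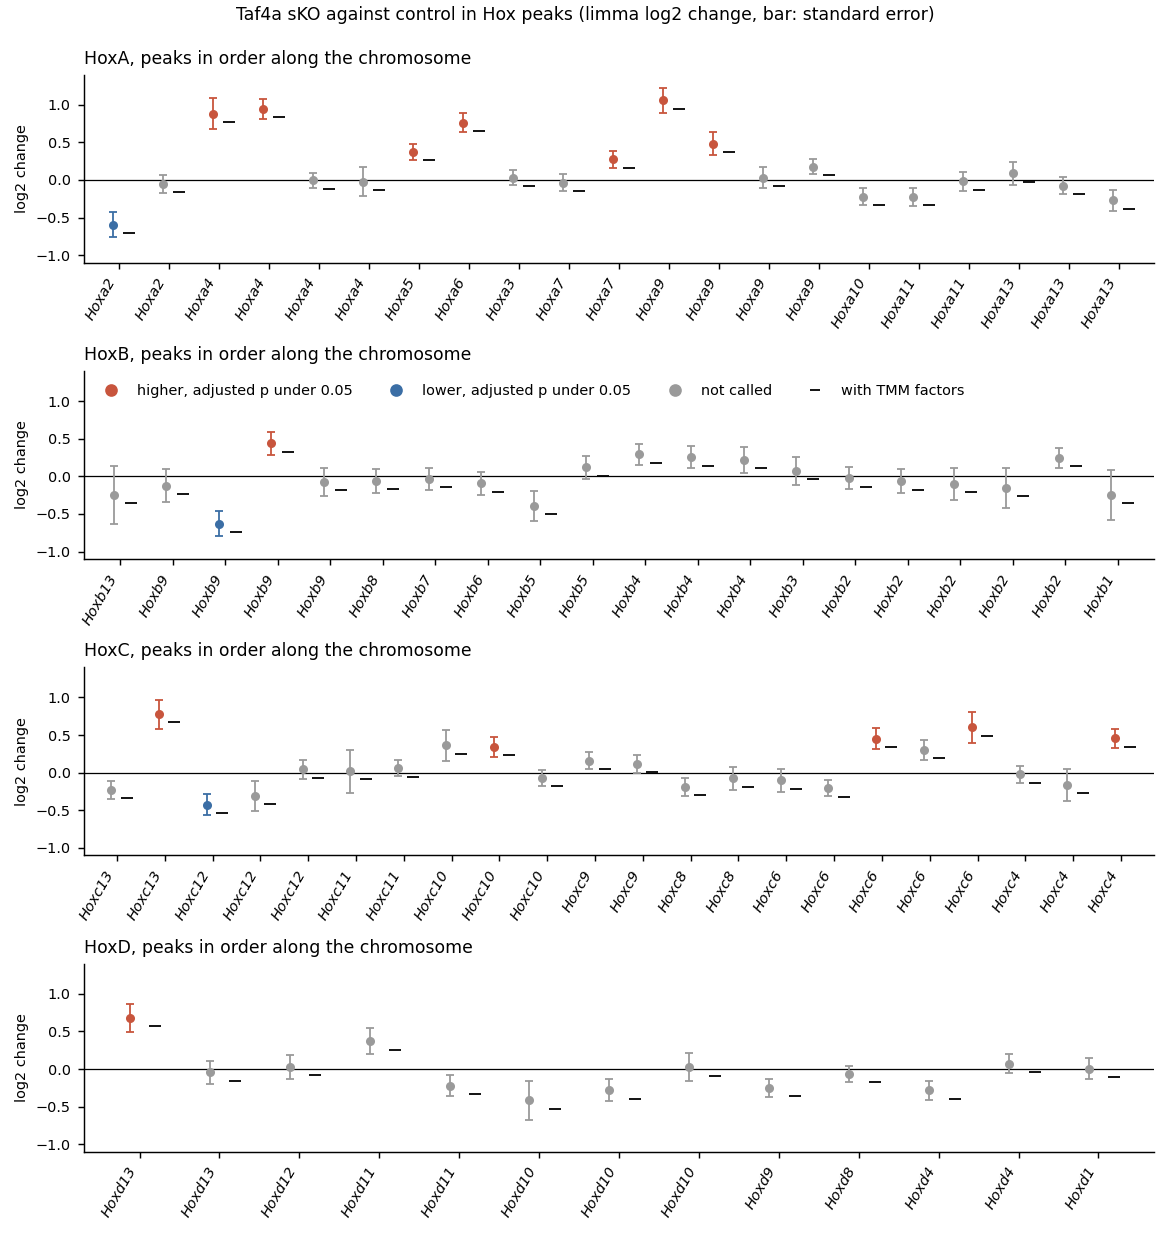
Limma log2 change of Taf4a sKO over control (y axis, bars are standard errors) for the Hox peaks in order along the chromosome (x axis, assigned gene), coloured by call; black dashes give the change with TMM factors. None of the 6 peaks of Hoxa10, Hoxa11 and Hoxa13 is called with the authors' scaling, and the dashes lie slightly below the points throughout.

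The largest rise was at Hoxa9, a gene active in the trunk and limb and widely known for its role in blood cell leukaemia. The peak at chr6:52226915-52227162 lay in an exon of Hoxa9, 332 bp from a start of a Hoxa9 transcript. Its normalized counts were 140, 150 and 188 in control and 268, 366 and 366 in Taf4a sKO MuSCs. All Taf4a sKO libraries lay above all control libraries, and replicate 1 was the lowest of the former. The log2 change was 1.06 ± 0.16 (standard error), an adjusted p of 1.8e-05 by limma. It was the 1 gained Hox peak, and with TMM factors its log2 change was 0.95, still called, but below the 2-fold limit. The neighbouring 190-bp Hoxa9 peak, 910 bp from the start of Mir196b, had 144, 143 and 144 in control and 211, 212 and 181 in Taf4a sKO MuSCs (log2 change 0.48, adjusted p = 0.015 by limma), a call lost with equal total signal and without Taf4a sKO replicate 1 or 2. In contrast, the Hoxa9 peak at the start site nearest to it, chr6:52230537-52230766, had 240, 250 and 313 compared to 276, 271 and 268, and its groups overlapped (log2 change 0.03 ± 0.15).

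Hoxa4, an anterior to central gene of the cluster, carried the next 2 largest rises, both in peaks that lie nearer to Hoxa3. The 710-bp peak at chr6:52184907-52185616, in an exon of the noncoding gene Gm29430 and 387 bp from a start of a Hoxa3 transcript, had 229, 203 and 254 in control and 433, 429 and 454 in Taf4a sKO MuSCs. The groups were far apart, by a log2 change of 0.94 ± 0.14 (adjusted p = 9.8e-06 by limma). The 299-bp peak at chr6:52183813-52184111, 107 bp from a start of a Hoxa3 transcript, had 50, 61 and 47 in control and 94, 106 and 92 in Taf4a sKO MuSCs. Its log2 change was 0.88 ± 0.20 (adjusted p = 0.0013 by limma), and again the groups did not overlap. These are the peaks whose sequence with Pbx-Hox and AP-1 motifs is printed above. The Hoxa4 start-site peak had 1264, 1200 and 1252 in control and 1188, 1309 and 1208 in Taf4a sKO MuSCs, and its groups overlapped (log2 change -0.01 ± 0.10).

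At Hoxa6 the change was at the start site itself. The 458-bp peak at chr6:52208498-52208955, with its centre 4 bp from the start, had 324, 361 and 346 in control and 537, 602 and 608 in Taf4a sKO MuSCs. The lowest Taf4a sKO library exceeded the highest control library by a wide margin, and the log2 change was 0.76 ± 0.13 (adjusted p = 4.6e-05 by limma). It was the one peak of Hoxa6, and it lay also within introns of Hoxa3 transcripts and of Gm28308 and the antisense gene Hoxaas3. The start-site peak of the adjacent Hoxa5 rose less, from 982, 913 and 1024 to 1217, 1296 and 1262 (log2 change 0.37 ± 0.10, adjusted p = 0.0061 by limma). The Hoxa7 start-site peak was not called, with 1423, 1198 and 1675 compared to 1411, 1421 and 1321. Its second peak, which overlaps coding sequence of Hoxa9, rose from 1098, 997 and 1207 to 1353, 1391 and 1236 (log2 change 0.27 ± 0.11, adjusted p = 0.047 by limma), a call that was lost with TMM factors (adjusted p = 0.053).

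The Hoxa2 peak at chr6:52168655-52168992, in an exon of the noncoding gene Hoxaas2, fell. It had 215, 193 and 188 in control and 161, 121 and 115 in Taf4a sKO MuSCs, with replicate 1 the highest of the latter and no overlap (log2 change -0.60 ± 0.17, adjusted p = 0.0059 by limma). It was the 1 HoxA peak that fell with the authors' scaling, and 1 of 5 with TMM factors.

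In HoxC, Hoxc13 rose in the peak at chr15:102927565-102927828, in the untranslated part of its last exon, 6593 bp from its start. The counts were 57, 66 and 62 in control and 112, 104 and 103 in Taf4a sKO MuSCs, close within each group (log2 change 0.78 ± 0.19, adjusted p = 0.0021 by limma). The start-site peak of Hoxc13 had 553, 557 and 549 in control and 461, 451 and 504 in Taf4a sKO MuSCs, all below control (log2 change -0.23 ± 0.12), which limma did not call with the authors' scaling and called lower with TMM factors. Hoxc12 fell in the peak at chr15:102931484-102932214, between Hoxc13 and Hoxc12 and outside transcripts. It had 358, 364 and 388 in control and 312, 232 and 288 in Taf4a sKO MuSCs (log2 change -0.42 ± 0.14, adjusted p = 0.020 by limma). The groups did not overlap, but replicate 2 was the lowest, and without it the adjusted p was 0.15; without control replicate 2 it was 0.057. Further rises were called in 2 peaks of Hoxc6 (log2 change 0.60 and 0.45), 1 of Hoxc4 (0.45) and 1 of Hoxc10 (0.34). The smaller Hoxc6 peak, at 0.60, had 74, 76 and 89 in control and 103, 169 and 102 in Taf4a sKO MuSCs, so replicate 2 stood above the others. Its call and that of Hoxc10 were lost with TMM factors, that of the Hoxc6 peak at 0.45 with equal totals and quantile normalization, and that of Hoxc4 with quantile normalization.

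The highest HoxC peak, of Hoxc6, had 1682, 1554 and 1909 in control and 1526, 1488 and 1428 in Taf4a sKO MuSCs, all below control. Its log2 change of -0.21 ± 0.11 was not called (adjusted p = 0.12 by limma), and with TMM factors it was -0.32 and called. The same held for the Hoxa10 start-site peak, with 1218, 1084 and 1348 in control and 1051, 1055 and 1013 in Taf4a sKO MuSCs (log2 change -0.22, and -0.33 and called with TMM factors). The Hoxa11 start-site peak had 993, 929 and 1173 compared to 834, 947 and 854, with overlap by 1 library, and a log2 change of -0.23 (-0.34 and called with TMM factors). The Hoxa13 peak with the highest control level per kb, at chr6:52257075-52257335, had 147, 149 and 158 in control and 162, 166 and 154 in Taf4a sKO MuSCs, with overlap (log2 change 0.09 ± 0.16).

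In HoxB, Hoxb9 changed in opposite directions in neighbouring peaks. The upstream peak at chr11:96269431-96270314, outside transcripts, had 260, 190 and 192 in control and 142, 130 and 138 in Taf4a sKO MuSCs. All Taf4a sKO libraries lay below, and control replicate 1 stood above the other control libraries (log2 change -0.63 ± 0.16, adjusted p = 0.0034 by limma). The start-site peak had 164, 179 and 160 in control and 235, 203 and 245 in Taf4a sKO MuSCs, without overlap (log2 change 0.44 ± 0.15, adjusted p = 0.023 by limma), a call lost with TMM factors (adjusted p = 0.069). The other 18 HoxB peaks were not called, and the cluster remained low.

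In HoxD, the Hoxd13 peak at chr2:74667212-74667645, 882 bp from the start site and outside transcripts, had 67, 69 and 75 in control and 101, 116 and 123 in Taf4a sKO MuSCs. It was the least accessible HoxD peak in control, and its groups did not overlap (log2 change 0.68 ± 0.19, adjusted p = 0.0053 by limma). The Hoxd13 peak over the start site had 201, 224 and 220 compared to 179, 211 and 240, with overlap. Hoxd8 had 1249, 1190 and 1350 compared to 1256, 1261 and 1115, with overlap, and was called lower with TMM factors (log2 change -0.17, adjusted p = 0.039 by limma). The highest Hoxd4 peak had 453, 458 and 468 compared to 459, 478 and 515, also overlapping. The Hoxd4 start-site peak had 482, 477 and 517 in control and 382, 426 and 406 in Taf4a sKO MuSCs, all below control (log2 change -0.28 ± 0.13), which was not called with the authors' scaling and called lower with TMM factors.

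**Figure D4:**
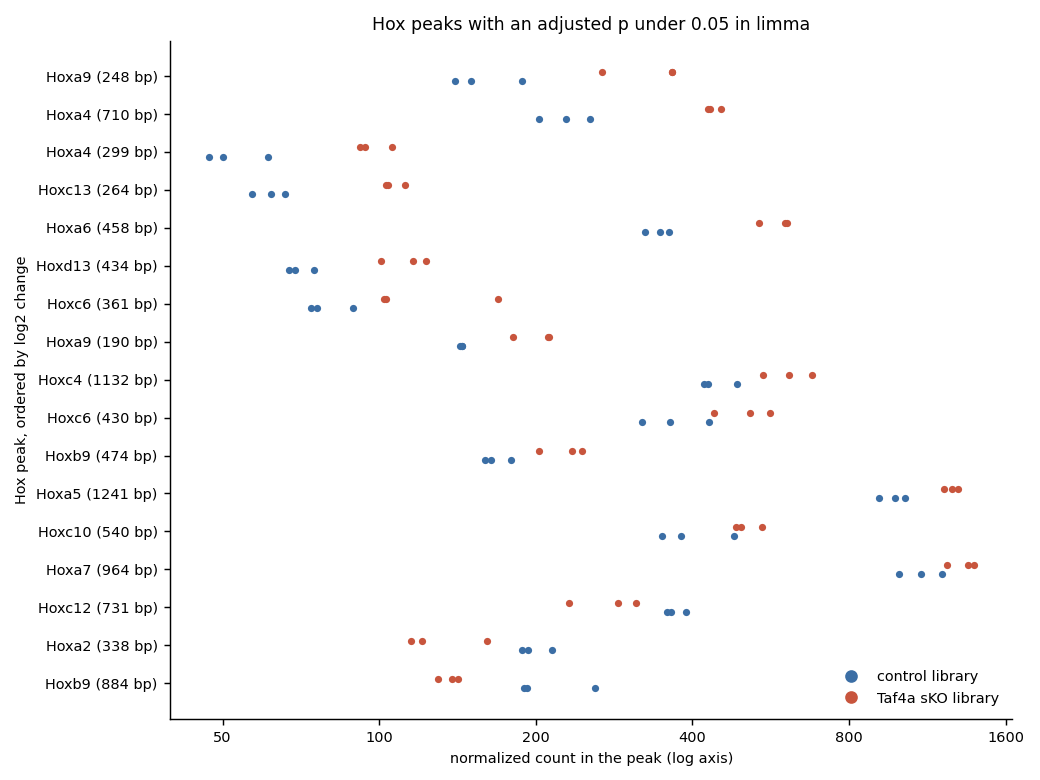
Normalized counts (x axis, log scale) of each library in called Hox peaks (y axis, assigned gene and peak length), ordered by log2 change, with control and Taf4a sKO libraries in separate colours. In each peak the 3 Taf4a sKO points lie on one side of the 3 control points.

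Summed over each cluster, Taf4a sKO and control MuSCs overlapped with the authors' scaling. The HoxA sums were 16751, 15497 and 18028 in control and 18030, 18513 and 17489 in Taf4a sKO MuSCs, a log2 ratio of 0.10. For HoxC they were 11563, 10784 and 12862 compared to 11825, 12118 and 11912, a log2 ratio of 0.03. For HoxB they were 3101, 3055 and 3470 compared to 3196, 3428 and 3350, a log2 ratio of 0.05, and for HoxD 4562, 4552 and 4820 compared to 4287, 4553 and 4302, a log2 ratio of -0.08. In HoxD the overlap was that of a single library pair, 4552 and 4553. With TMM factors HoxD had 4871, 5081 and 4543 in control and 4007, 4473 and 4171 in Taf4a sKO MuSCs, and HoxC 12345, 12037 and 12122 compared to 11054, 11904 and 11549, so that all Taf4a sKO sums lay below control in both, as they did with median-of-ratios factors and equal totals, while HoxA and HoxB overlapped with each of these. The share of Hox peaks in the total signal was 0.0954, 0.0962 and 0.0915% in control and 0.0843, 0.0927 and 0.0883% in Taf4a sKO MuSCs, again with overlap. By gene, summed over peaks, Hoxa6 had the highest log2 ratio (0.76), followed by Hoxa5 (0.37), Hoxa9 (0.26) and Hoxb4 (0.26). Paralog number 5 was higher in each Taf4a sKO library than in any control library, with a log2 ratio of 0.28, carried by Hoxa5 (0.37), while Hoxb5, its other member, had 0.017 and overlapping groups.

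**Figure D5:**
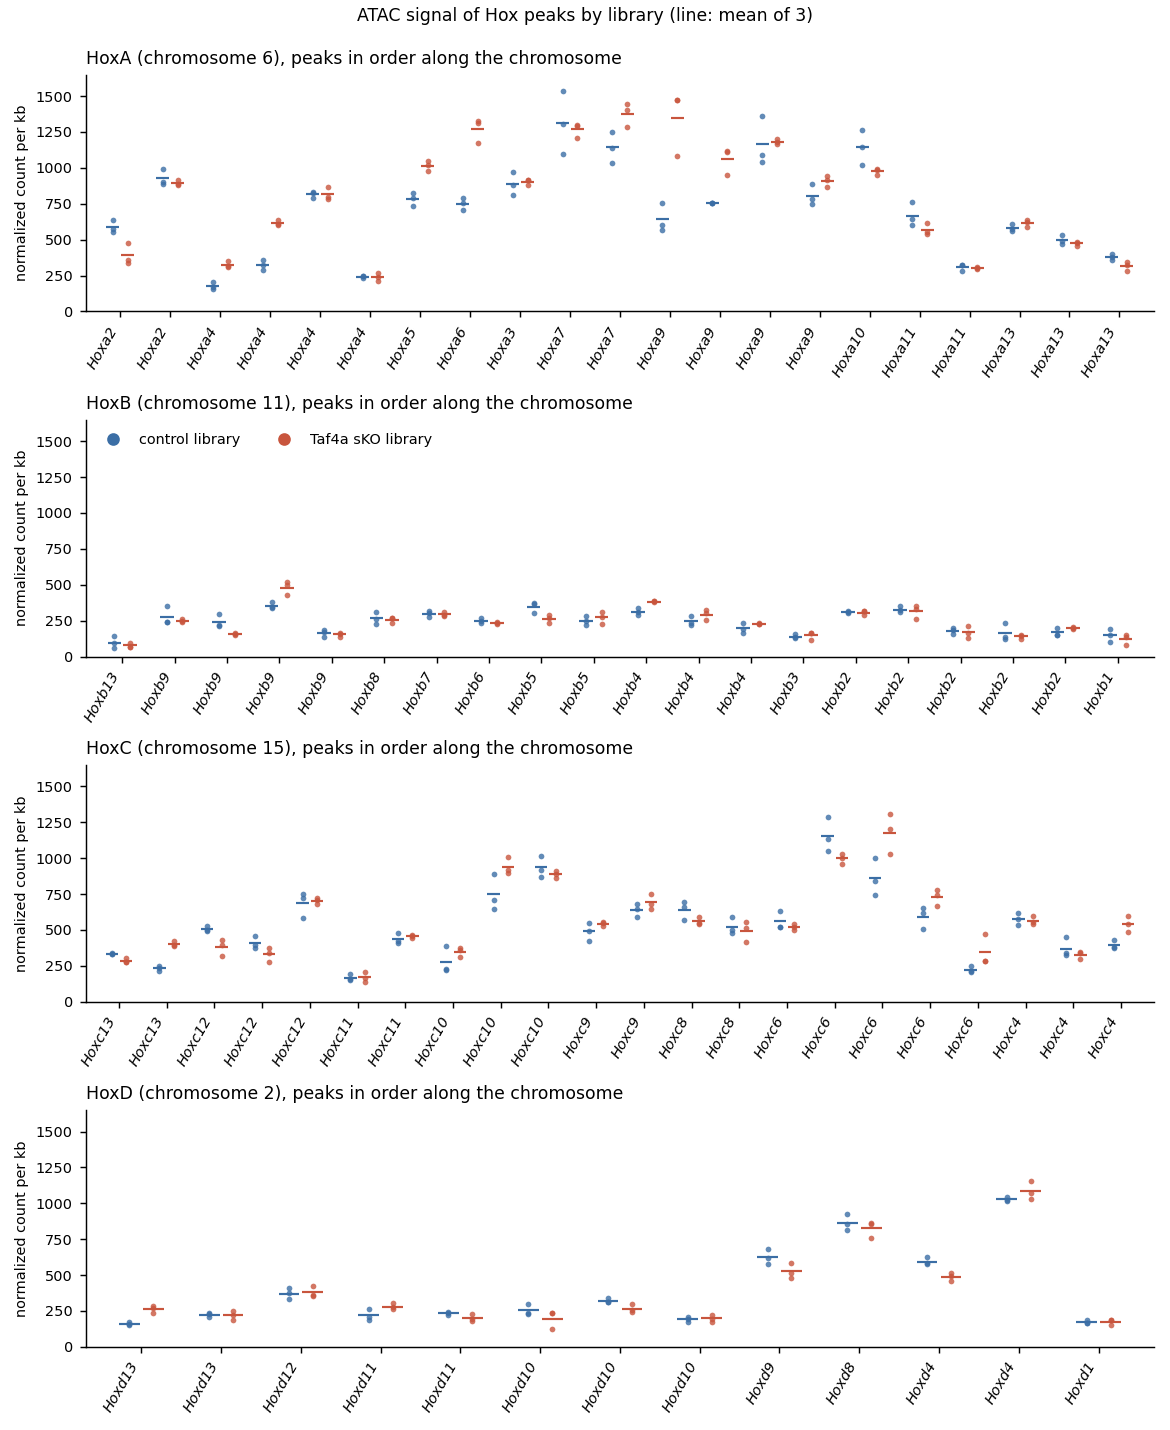
Normalized counts per kb of peak (y axis) of each library in the Hox peaks in order along the chromosome (x axis, assigned gene), control and Taf4a sKO libraries in separate colours, lines are means of 3. HoxB lies low throughout, and the groups overlap in most peaks.

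Inside the 4 spans, 7 peaks were not members because the table assigned them to another symbol or to no gene. Of these the peak assigned to Mir196a-1, at chr11:96260224-96260751 between Hoxb13 and Hoxb9, rose most. It had 149, 152 and 153 in control and 283, 285 and 295 in Taf4a sKO MuSCs, a log2 change of 0.92 ± 0.14 (adjusted p = 2.2e-05 by limma) and of 0.81 with TMM factors. It lay 4676 bp from the microRNA in an intron of a noncoding transcript. The Hox clusters encode microRNAs that are known to act on Hox transcripts, and the mature forms of the 196 family, from RefSeq (GRCm38), are shown with the seed (bases 2 to 8) in capitals because Mir196a-1 lies near this peak and Mir196b near the Hoxa9 peaks.
mmu-miR-196a-5p: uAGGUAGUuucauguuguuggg
mmu-miR-196b-5p: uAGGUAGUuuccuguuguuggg
They share the seed AGGUAGU. The peak with no assigned gene at chr2:74740242-74741185, in an intron of Hoxd3, had 400, 373 and 345 in control and 297, 249 and 237 in Taf4a sKO MuSCs (log2 change -0.52 ± 0.14, adjusted p = 0.0049 by limma), all below control. The peak of Hoxaas3 and that of Gm28308, 43 bp from a start of a Hoxa7 transcript, had log2 changes of 0.01 and -0.02 and were not called.

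Genes that act with or on the Hox clusters were read from the same fit. Of 19 peaks at the TALE cofactors, the homeodomain partners of Hox proteins, 3 were higher and 4 lower. The Pknox1 peak fell most clearly, from 246, 259 and 182 to 118, 89 and 114 (log2 change -1.08, adjusted p = 3.2e-05 by limma), and a Pknox2 peak rose from 1303, 1363 and 1704 to 2272, 1942 and 2143 (log2 change 0.55). Of 54 peaks at Polycomb genes, which hold silent Hox genes, 7 were higher and 4 lower, with a gained Cbx7 peak (329, 358 and 267 to 1059, 684 and 969) and a lost Phc2 peak (104, 91 and 87 to 24, 21 and 28). Of 19 Trithorax peaks 2 were higher and none lower, both of them at Kdm6b, which removes the H3K27 methyl mark (log2 change 0.37 and 0.41). Of 14 peaks at genes of boundary and looping factors 2 were higher and 1 lower, with Stag1 at 0.70 and a lost Rad21 peak at -1.06. Of 32 peaks of upstream regulators 6 were higher and 3 lower, and the gained ones were a pair at Rara, a retinoic acid receptor (log2 change 1.08 and 1.02), and the lost one was at Rarb, another such receptor (100, 140 and 150 to 71, 40 and 59, log2 change -1.20). Of 29 peaks at genes flanking the clusters 3 were higher and 3 lower, among them Evx1 next to Hoxa13 at -0.52 and Smug1 near HoxC at 0.47. These counts are to be read against the 17.8% higher and 9.68% lower of coding peaks, beside the 28.0% and 13.9% of all peaks.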

How the data were processed

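ATAC-seq reads of 6 libraries had been trimmed with Trimmomatic 0.39, aligned with STAR 2.7.11b to mm10, freed of duplicates with Picard 3.1.1 and counted with featureCounts in unified peaks by the authors. The deposited score of a peak is this read count multiplied by a depth factor and rounded, with the factor estimated here at 1.39, 1.00 and 1.23 for control and 1.39, 1.37 and 1.29 for Taf4a sKO libraries. A Tn5 shift is not described in the sources used here. The deposited table names 1 gene or none for each peak, and this assignment was kept. RNA-seq and CUT&RUN data were not analysed here.

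Because the values are rounded and scaled, limma 3.58.1 (R 4.3.3) with mean-variance trend and robust moderation was fitted to log2(value + 1), so fold changes of low peaks are understated, over the 75384 peaks with a mean above 10, with Benjamini-Hochberg adjustment and a threshold of 0.05. All 79 Hox peaks passed this filter. Gained and lost peaks had a log2 ratio of group means (pseudocount 1) beyond 1. Levels per kb divide the value by the peak length. The fit was tested on simulated data. The P-values measure the spread between 3 libraries per group, described as biological replicates, and an exact permutation test of 3 against 3 could not go below 0.1.

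Full values are printed for the highest and lowest Hox peak of each cluster per kb, gained Hox peaks, the 6 smallest p, the 3 largest rises and falls, and the highest peak of each paralog number present in 3 or more clusters. Of the gene lists, some peaks are given with counts and others with the log2 change alone. Hox peaks beyond this rule were chosen after their values were seen. Values of 1 Hox gene that this rule names, of 1 marker gene, and 1 sequence are not reported here. The members, lists and motifs were chosen with earlier results of these data known. Coordinates follow the table, read as counting from 1. Annotation was GENCODE vM21, and sequences came from GRCm38.p6 and RefSeq, handled with pysam 0.24.0. Alternatives covered the filter, pseudocount, threshold, scaling, moderation, replicate block, member rule and each library left out. Replicate numbers showed no regular pairing of the libraries, and the main fit assumed none.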

Additional observations from a re-analysis of the deposited data

How the results depend on the processing

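The count of higher Hox peaks was 15 with the authors' scaling, 11 with TMM or median-of-ratios factors, 10 with quantile normalization and 9 with equal total signal in peaks. The count of lower peaks rose from 3 to 16 with TMM or median-of-ratios factors and to 20 with equal totals or quantile normalization, and the median log2 change moved to -0.12, -0.12, -0.15 and -0.15 with TMM factors, median-of-ratios factors, equal totals and quantile normalization. The values were divided by TMM factors of 0.94, 0.90 and 1.06 in control and 1.07, 1.02 and 1.03 in Taf4a sKO libraries. This lowered Taf4a sKO values relative to control on average. It did not in each pair of libraries, since the factor of control replicate 3 exceeded those of Taf4a sKO replicates 2 and 3. Quantile normalization did not move all peaks alike, and the log2 change of the Hoxb13 peak went from -0.25 to 0.06. With each of these scalings, as with a limit of 1.5 on the log2 ratio, 0 peaks were gained, whereas a limit of 1.5-fold gave 7 gained and 1 lost. The log2 ratio of summed HoxA signal became -0.0061 with median-of-ratios factors, -0.041 with equal totals and -0.0049 with TMM factors (added after seeing the data), that of HoxB -0.058, -0.094 and -0.057, that of HoxC -0.082, -0.12 and -0.081, and that of HoxD -0.20, -0.23 and -0.20. Control levels per kb of HoxD became 432, 438 and 432 with these. With the highest peak of each gene in place of all its peaks, control levels were 931 (HoxA), 675 (HoxC), 480.0 (HoxD) and 254 (HoxB) per kb, in the same order. Leaving out each library in turn gave 9 to 22 higher, 2 to 4 lower, 0 to 2 gained and 0 lost peaks, and medians of -0.03 to 0.03. The gained Hoxa9 peak fell below the limit without control replicate 1 and without Taf4a sKO replicates 2 or 3, and 2 peaks were gained without control replicate 3. Filters on the mean, a pseudocount of 10, moderation and the wider member rule kept the counts within 1.5 times.

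With the replicate block, 14 Hox peaks were higher and 3 lower, and the Hoxa7 call was lost. Deviations of same-numbered libraries correlated at 0.11, -0.12 and -0.03, and control replicate 3 correlated best with Taf4a sKO replicate 2. The numbers thus showed no regular pairing, though so few correlations cannot exclude one.

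Of 342 values of the 23 named peaks under alternatives, 313 stayed on the same side of the threshold, 9 lost the call and 20 gained one. No value that was called in either fit changed its sign, but 30 of the 313, in 8 peaks, did. Among these named peaks the lost calls were those of the Hoxb9 start-site peak and the Hoxc12 peak. With a mean of 19.2, the Hoxb13 peak rests on the lowest counts, and its log2 change had a standard error of 0.38. The depth factors differ between libraries, so a value of 100 rests on fewer reads in libraries scaled up more.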
